A study of Mus musculus with 4 samples.

Results

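The nuclear genes for subunits of the oxidative phosphorylation (OXPHOS) complexes were followed through embryonic mammary gland development, in epithelium and in the mesenchyme around it. They were chosen by symbol alone: Nduf followed by a, b, c, s or v and a number, Sdha to Sdhd, and symbols that begin with Uqcr, with Cox4 to Cox8 or with Atp5, provided that the Ensembl ID is in the gene lists of all 4 libraries. This gave 85 of the 30406 shared genes, of which 35 belong to complex I, 4 to complex II, 8 to complex III, 20 to complex IV and 18 to complex V. Ndufa4 and its paralog Ndufa4l2 were counted with complex IV, where the Ndufa4 protein is found, although their symbols name complex I. For 3 members (Atp5md, Atp5mpl and Dmac2l) the symbol matched in only 1 version of the gene lists. Ndufb1-ps matched by symbol but was left out, because its ID is missing from the E15.5 list. It had 1395, 735 and 1284 UMIs in kept cells at E13.5, E14.5 and P0, so sums and rankings of complex I lack a well-detected gene. All 85 members are annotated as protein-coding on GRCm38, spread over 19 chromosomes, with 3 of them on chromosome X.

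In the inner mitochondrial membrane, complex I (NADH dehydrogenase) and complex II (succinate dehydrogenase) pass electrons from nutrients to ubiquinone, complex III passes them on to cytochrome c, and complex IV (cytochrome c oxidase) passes them to oxygen. Complexes I, III and IV pump protons as they do so, and complex V (ATP synthase) uses the returning protons to make ATP. Most subunits are made from nuclear genes, but the core of each pump is made in the mitochondrion from its own genome, so products of both genomes are assembled together. Several complex IV subunits exist as a common form and as a form restricted to some tissues or conditions.

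The libraries were made from mammary tissue of female wild-type C57B6 mice (C57 B6/N in the study's methods) at E13.5 (the mammary bud), E14.5, E15.5 (sprouting) and P0 (the day of birth), with 1 library per stage from tissue pooled over several embryos. EpCAM-positive and EpCAM-negative cells were sorted, without cells marked as blood or endothelium, and sequenced together by the 10x 3′ method, which counts transcripts as unique molecular identifiers (UMIs). Each stage was dissected in its own session, and P0 tissue had its own digestion mix and a red blood cell lysis step, so stage and preparation cannot be told apart. A cell was called epithelium where Epcam, Krt8, Krt18, Krt5 and Krt14 together had more UMIs than Col1a1, Col1a2 and Col3a1, and mesenchyme in the opposite case.

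Cells of 5000 UMIs or more were kept if mitochondrial genes took no more than 6% of them. Epithelial cells numbered 98, 45, 532 and 230 in order of stage, and mesenchymal cells 135, 31, 283 and 273. The study gave fewer mammary epithelial cells at every stage, with the widest gap in proportion at E13.5. It removed skin cells. It also kept fewer cells of all kinds at every stage under the same stated limits, where 235, 76, 816 and 503 were kept here. At E13.5 its total was close to the one here. The part of skin removal in each gap was not tested. The tissue rule used here does not separate skin epithelium from mammary epithelium, so epithelium here can hold both. By the study's count, most of the 98 epithelial cells at E13.5 would not be mammary. The 8 groups of stage and tissue held between 838030 and 14293755 UMIs. The median cell had 16438 to 26725 UMIs in the embryonic groups, and 9973 UMIs in epithelium and 8743 in mesenchyme at P0. No kept cell barcode was shared between libraries. Markers of other cells stood apart in some groups. In E15.5 epithelium the 6 skin markers (Krt1, Krt10, Krt15, Krtdap, Lor and Ivl) summed to 1541 UMIs per 1000000 (CPM), against 507 and 710 CPM in the earlier stages and 27.5 CPM in P0 epithelium. Of the 1541 CPM, 852 were Krtdap, which had a UMI in 84.2% of E15.5 epithelial cells, and Krt15 had one in 70.7%. Krtdap is a gene of epithelial stratification that the study also gives for luminal-like mammary cells of this stage, so cells with these markers need not be skin cells and can be mammary. In P0 mesenchyme the blood markers, nearly all of them haemoglobin, summed to 6656 CPM and the adipocyte markers to 375 CPM, against at most 12.2 and 24.9 CPM in the 7 other groups. Of the 375 CPM, 356 were Fabp4, with a UMI in 95 of the 273 cells, while Adipoq and Plin1 each had one in 3 cells. The study gives Fabp4 for its Col15a1-positive fibroblasts, with markers of pre-adipocytes, so these cells need not be adipocytes. Cidea went the other way, at 18.7 CPM in P0 epithelium and 0.40 CPM in P0 mesenchyme. Skeletal muscle markers summed to 38.2 CPM in E13.5 mesenchyme and 43.1 CPM in P0 mesenchyme, against at most 5.97 CPM in the other groups. Myog had its 53 UMIs at E13.5 in 2 cells, and Acta1 had 68 UMIs in 15 cells at P0.

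Levels are given as UMIs per 1000000 UMIs of all kept cells of a group (CPM), with an exact 95% Poisson interval, and ratios of levels with an exact 95% binomial interval. Each transcript is counted at its 3′ end, so levels were not divided by length. Cells of 1 library are not replicates, so these intervals cover counting error only and no test within a stage or between stages was possible. A gene was called higher or lower where its levels differed at least 1.5-fold and averaged at least 50 CPM in the groups compared. The share of all genes called by this rule is given beside the members' count in the main setting. It is not given for the alternative settings, so member counts there have no such share to be read against.

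Transcripts of the 85 genes made up about the same share of epithelium and mesenchyme at E13.5 and then took different courses. In epithelium they summed to 21011 CPM (20812 to 21210) at E13.5, 19121 CPM at E14.5, 17320 CPM at E15.5 and 17453 CPM at P0. In mesenchyme they summed to 20856 CPM at E13.5, 19170 CPM at E14.5, 20808 CPM at E15.5 and 12501 CPM at P0. By these sums epithelium was level with mesenchyme at E13.5 (ratio 1.01, 0.994 to 1.02) and at E14.5 (0.997, 0.978 to 1.02), below it at E15.5 (0.832, 0.827 to 0.838), and above it at P0 (1.40, 1.38 to 1.42). The median share of a cell's UMIs at E14.5 was 1.57% in epithelium and 1.99% in mesenchyme, so the equal sums did not hold for the median cell. Between E15.5 and P0 the epithelial sum differed little (ratio of P0 to E15.5 1.01, 0.998 to 1.02), whereas the mesenchymal sum at P0 was 0.601 (0.594 to 0.608) of that at E15.5. The header of the E15.5 table names an earlier Cell Ranger version than the others, while the submitters' notes give 1 version for all stages, which leaves the comparison of tissues within E15.5 on 1 footing but not its comparison with other stages.

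**Figure D1:**
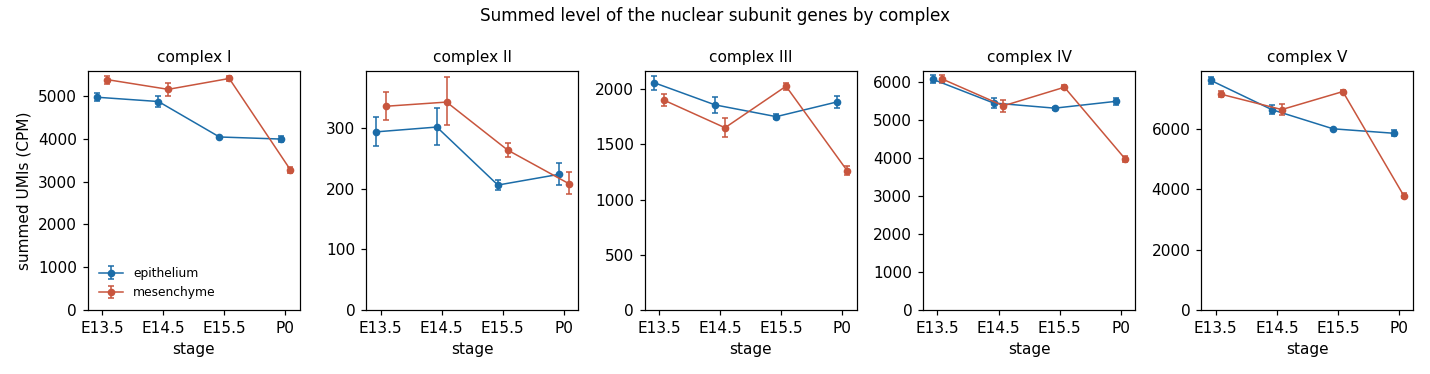
Summed level (UMIs per 1000000 UMIs of a group, CPM) of the nuclear subunit genes of complexes I to V at the 4 stages, in epithelium (blue) and mesenchyme (red), with exact 95% Poisson intervals that cover counting error only. In each complex the mesenchymal value is lowest at P0, and the epithelial value at P0 is above the mesenchymal one, though for complex II the intervals overlap.

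Within the set the complexes kept similar proportions. Complex V genes gave 30.3% to 36.3% of the members' UMIs over the 8 groups, complex IV 28.0% to 31.7%, complex I 22.9% to 26.9%, complex III 8.62% to 10.8% and complex II 1.19% to 1.79%. The lowest complex V share, 30.3%, was that of P0 mesenchyme. Complex I stood lowest in E15.5 epithelium relative to mesenchyme, at a ratio of 0.747 (0.738 to 0.757), against 0.781 for complex II, 0.829 for complex V, 0.864 for complex III and 0.906 for complex IV. At P0 the ratio of epithelium to mesenchyme was 1.55 (1.51 to 1.59) for complex V, 1.49 (1.43 to 1.56) for complex III, 1.38 (1.35 to 1.42) for complex IV, 1.22 (1.18 to 1.25) for complex I and 1.07 (0.952 to 1.21) for complex II.

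The members with the highest mean over the 8 groups were Cox7c (831 CPM, between 581 and 1119), Cox4i1 (731 CPM) and Cox6c (712 CPM) in complex IV, and Atp5e (646 CPM), Atp5b (552 CPM) and Atp5l (502 CPM) in complex V. Atp5b encodes the catalytic beta subunit of ATP synthase, and Cox4i1 encodes the common form of a regulatory subunit of cytochrome c oxidase. In complex III they were Uqcrh (533 CPM), Uqcrb (279 CPM) and Uqcr11 (247 CPM), and in complex I Ndufa2 (267 CPM), Ndufa7 (264 CPM) and Ndufb11 (211 CPM). The 4 succinate dehydrogenase genes were low and close together, with Sdhb (iron-sulfur subunit) at 89.4 CPM, Sdha (the flavoprotein that oxidises succinate) at 65.1 CPM, and the membrane anchors Sdhc and Sdhd at 61.8 and 56.3 CPM. A mean of at least 50 CPM was reached by 75 of the 85 members, and 79 had UMIs in all 8 groups. Cox8c had no UMI in any kept cell, and the forms known from heart and skeletal muscle were near 0: Cox6a2 had 3 UMIs at E13.5 and 2 at P0, all in mesenchyme, and Cox8b had 1 UMI. Mesenchyme at E13.5 and P0 also had the highest sums of skeletal muscle markers.

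Many promoters of OXPHOS genes are known to hold sites for NRF1, ETS factors such as GABP, and YY1, which are general activators of nuclear genes for mitochondrial proteins. RefSeq promoter windows (GRCm38.p6, 250 bases before to 50 after each start) were found for 69 of the 85 members. The NRF1 motif GCGCATGCG was in the windows of 8 of the 69 members (11.6%) and of 1.95% of all 27025 genes, searched on both strands. In 5 members (7.25%), and in 1.07% of all genes, matches on both strands overlapped to form a palindrome with 1 more letter. The ETS motif CCGGAAG was in 17 members (24.6%) against 9.93% of all genes, and the YY1 motif AAGATGGCG in 7 members (10.1%) against 1.64%. None of the motifs was found in 42 members, 1 of them in 22 and 2 in 5. The 8 members with the NRF1 motif were Atp5g2, Atp5k and Atp5l of complex V, Cox6a1 of complex IV, Uqcr11 and Uqcrc1 of complex III, and Ndufa8 and Ndufa11 of complex I. Windows are shown for 3 of these whose levels are given in the text (Atp5g2, Atp5l and Uqcr11), and for Ndufa4, which stood furthest on the epithelial side at P0 and has none of the motifs. Each runs 5′ to 3′ on the gene's strand, and capitals mark letters of the NRF1 and ETS motifs on either strand.
Atp5g2, chr15:102670998-102671297, minus strand: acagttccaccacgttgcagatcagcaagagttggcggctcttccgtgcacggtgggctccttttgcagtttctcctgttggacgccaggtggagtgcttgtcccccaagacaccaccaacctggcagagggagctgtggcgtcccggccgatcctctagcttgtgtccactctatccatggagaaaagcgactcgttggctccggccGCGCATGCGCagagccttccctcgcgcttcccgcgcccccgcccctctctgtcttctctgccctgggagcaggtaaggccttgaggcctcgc
Atp5l, chr9:44920693-44920992, minus strand: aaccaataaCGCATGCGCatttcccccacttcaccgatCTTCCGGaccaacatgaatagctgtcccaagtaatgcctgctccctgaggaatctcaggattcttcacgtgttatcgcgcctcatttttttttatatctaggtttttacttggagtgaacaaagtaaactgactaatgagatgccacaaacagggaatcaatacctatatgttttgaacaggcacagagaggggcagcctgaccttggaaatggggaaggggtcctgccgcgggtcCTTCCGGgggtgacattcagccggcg
Uqcr11, chr10:80406772-80407071, minus strand: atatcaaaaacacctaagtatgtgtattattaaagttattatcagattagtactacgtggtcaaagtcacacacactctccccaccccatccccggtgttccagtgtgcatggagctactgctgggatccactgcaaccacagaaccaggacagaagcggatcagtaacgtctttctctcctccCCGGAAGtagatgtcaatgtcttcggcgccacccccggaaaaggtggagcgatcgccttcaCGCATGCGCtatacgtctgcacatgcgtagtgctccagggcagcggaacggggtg
Ndufa4, chr6:11907401-11907700, minus strand: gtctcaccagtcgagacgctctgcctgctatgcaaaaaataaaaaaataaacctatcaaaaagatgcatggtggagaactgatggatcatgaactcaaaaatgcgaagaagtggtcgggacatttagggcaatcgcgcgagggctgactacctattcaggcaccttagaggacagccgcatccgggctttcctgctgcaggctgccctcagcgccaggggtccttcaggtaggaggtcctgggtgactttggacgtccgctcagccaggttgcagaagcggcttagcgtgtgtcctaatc
A match says only that these letters lie in the window, and binding was not measured here.

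At E13.5 epithelium and mesenchyme differed little in single members. Of the 76 members with enough UMIs, 3 were higher in epithelium and 0 lower, while 16.0% of all genes tested were called higher and 18.6% lower. The median log2 ratio of epithelium to mesenchyme was -0.03 for the members and 0.02 for all genes. The 3 were Cox5a (subunit of cytochrome c oxidase), Ndufs6 (a subunit of the complex I arm that binds NADH) and Uqcr11 (a small complex III subunit). Cox5a stood at 298 CPM in epithelium and 176 CPM in mesenchyme (1.69-fold, 1.49 to 1.92), Ndufs6 at 195 and 122 CPM (1.596-fold, 1.37 to 1.86) and Uqcr11 at 323 and 212 CPM (1.52-fold, 1.36 to 1.71). The lowest ratio was that of Ndufv3, at 0.696 (0.560 to 0.862), which is within 1.5-fold.

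At E14.5, the library with the fewest kept cells, 3 members were higher in epithelium and 4 lower among 75, and 20.7% and 21.5% of all genes were. Cox5a (247 against 113 CPM, 2.18-fold, 1.73 to 2.78) and Uqcr11 (320 against 192 CPM, 1.67-fold, 1.39 to 2.01) were again on the epithelial side. Cox7a2l, counted here with complex IV, stood at 333 and 205 CPM (1.62-fold, 1.36 to 1.95). Ndufa13, Ndufa3 and Ndufa5 of complex I and Sdhc were higher in mesenchyme, with Ndufa13 at 134 CPM in epithelium and 252 CPM in mesenchyme (mesenchyme 1.87-fold higher, 1.53 to 2.31). The median log2 ratio was 0.00 for the members and 0.07 for all genes.

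Epithelial cells with skin markers were part of both near-equal sums. At E13.5, 42 of the 98 epithelial cells had at least 10 UMIs of the 6 skin markers, and the members held 2.33% (2.30 to 2.36) of their UMIs against 1.85% (1.83 to 1.88) in the other 56 cells. At E14.5 the values were 2.26% (2.23 to 2.30) in 17 cells and 1.54% (1.51 to 1.57) in 28, and at E15.5 1.80% (1.80 to 1.81) in 274 and 1.63% (1.62 to 1.64) in 258. The cells with skin markers were also deeper, with a median of 24757 against 17154 UMIs at E13.5. When skin markers were counted after every cell was thinned to 5000 UMIs, the members still held more in cells with at least 2 of these UMIs than in the others, at 2.18% against 2.00%, 2.31% against 1.67% and 1.82% against 1.597% in the 3 embryonic stages in order. Without the cells with at least 10 skin marker UMIs, the log2 ratio of epithelium to mesenchyme was -0.17 at E13.5 and -0.32 at E14.5, the members called higher and lower were 0 and 7 at E13.5, and 20 were lower at E14.5. These counts rest on fewer cells and have no share of all genes beside them. Whether these cells come from skin or from the mammary epithelium was not tested.

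At E15.5, the library with the most UMIs in kept cells, most members were lower in epithelium, by small amounts. The 95% interval of the ratio lay below 1 for 55 of the 81 members with a ratio and above 1 for 10. Such intervals narrow with depth, and no count of them over all genes is given. Whatever the interval, the ratio was below 1 for 60 of the 73 members with enough UMIs and for 1353 of 3073 of all genes. At least 1.5-fold apart were 13 lower and 1 higher of 73 with enough UMIs, which are 17.8% and 1.37%, while 19.3% of all genes were called lower and 26.8% higher, so the share of lower members was near that of all genes. The median log2 ratio was -0.31 for the members and 0.10 for all genes. Complex I gave 9 of the 13 lower members, out of 33 tested. None of the 12 complex IV members with enough UMIs was called.

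The members furthest on the mesenchymal side at E15.5 belonged to complexes V and I. Atp5g2, 1 of the 3 genes for subunit c of the rotor of ATP synthase, stood at 312 CPM in epithelium and 617 CPM in mesenchyme (mesenchyme 1.98-fold higher, 1.89 to 2.06). Ndufa13, also known as Grim19, stood at 140 and 275 CPM (1.97-fold, 1.85 to 2.10), Ndufa2 at 195 and 379 CPM (1.94-fold, 1.84 to 2.05), Ndufc1 at 130 and 234 CPM (1.80-fold, 1.68 to 1.92) and Atp5e, the epsilon subunit, at 537 and 939 CPM (1.75-fold, 1.69 to 1.81). Ndufa13 and Ndufa2 also had ratios below 1 at E13.5 (0.758 and 0.728) and at E14.5 (0.533 and 0.695). The single member called higher in epithelium was Uqcrfs1, the Rieske iron-sulfur protein of complex III, at 120 against 79.8 CPM (1.503-fold, 1.37 to 1.65). Without the epithelial cells with skin markers 21 members were lower and 0 higher, with no share of all genes for that setting.

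At birth the order of the tissues was reversed. Of 70 members with enough UMIs, 29 were higher in epithelium (41.4%) and 2 lower (2.86%), against 39.2% and 22.4% of all genes, so the share called higher was near that of all genes and the share called lower was below it. The median log2 ratio was 0.54 for the members and 0.36 for all genes. The interval of the ratio lay above 1 for 56 and below 1 for 6 of the 81 members with a ratio, with no such count over all genes. Whatever the interval, the ratio was above 1 for 62 of the 70 members and for 1812 of 2799 of all genes. Higher were 10 of 17 members of complex V, 6 of 13 of complex IV, 5 of 8 of complex III, 8 of 30 of complex I and 0 of 2 of complex II. Ndufa4 was furthest on the epithelial side. After it came Uqcrq (288 against 100.5 CPM, 2.87-fold, 2.48 to 3.32), Cox5a (226 against 96.9 CPM, 2.34-fold, 2.01 to 2.72), Ndufa12 (127 against 54.2 CPM, 2.33-fold, 1.91 to 2.87) and Atp5b (610 against 269 CPM, 2.27-fold, 2.07 to 2.49). Only Ndufa4l2 and Ndufv3 were called lower, Ndufv3 at 66.6 against 107 CPM (mesenchyme 1.61-fold higher, 1.33 to 1.96).

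The size of this difference depends on what the levels are set against. When the 8 groups were scaled by the median of ratios over genes in place of their UMI totals, the log2 ratio of epithelium to mesenchyme at P0 shifted by -0.38 for every gene, the members' sum went from 0.48 to 0.11, and 7 members were higher and 6 lower in place of 29 and 2. The calls of all genes move with this shift too, and their share was not set beside the rescaled counts. Ndufa4 remained on the epithelial side under both scalings, with its ratio of 3.998 far above the shift. In the P0 mesenchyme the red cell markers and Fabp4 named above were present. Without the 4 cells that had at least 1% haemoglobin UMIs the log2 ratio of the sums was 0.47 and 28 members were higher.

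**Figure D2:**
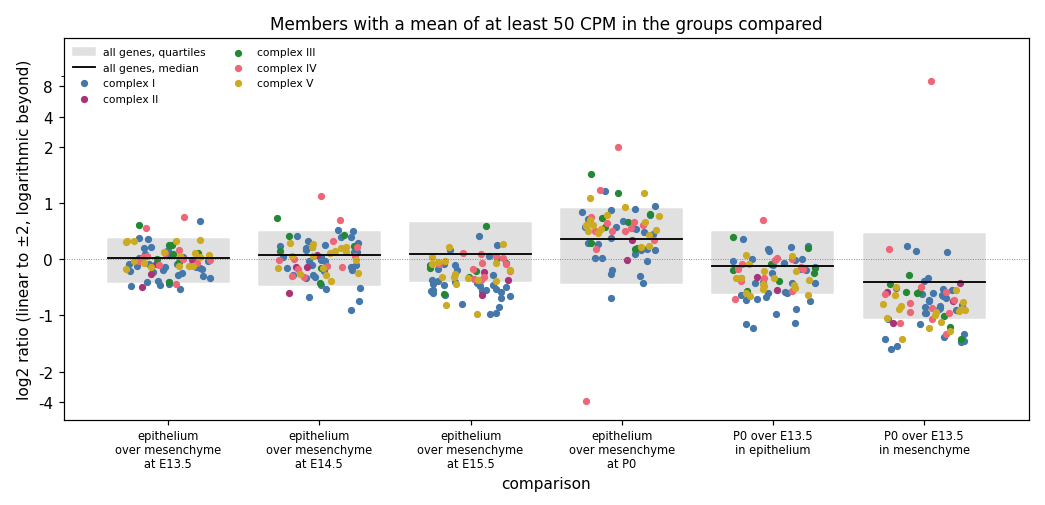
Log2 ratio of every member with a mean of at least 50 CPM in the groups compared (points, coloured by complex), for the 6 comparisons; the axis is linear to 2 on either side of 0 and logarithmic beyond. Grey boxes give the quartiles and black lines the median of all genes tested the same way. Most members lie below the median of all genes at E15.5 and in the comparison of P0 with E13.5 in mesenchyme, and Ndufa4l2 and Ndufa4 lie far from the other members at P0.

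The difference between E13.5 and P0 was larger in mesenchyme than in epithelium. By the study's count, most of the 98 epithelial cells at E13.5 would not be mammary, and the study removed skin cells. Leaving out the cells with skin markers still left more cells than that count. The comparison in epithelium can therefore set mammary cells at P0 mostly against skin cells at E13.5. In epithelium the members' sum at P0 was 0.831 (0.820 to 0.842) of that at E13.5, with 1 member higher and 17 lower of 73 (1.37% and 23.3%), against 22.9% and 25.4% of all genes. The median log2 ratio was -0.33 for the members and -0.12 for all genes. Complex I gave 13 of the 17, out of 33 tested, and complexes II and III none. Low ratios were those of Ndufv1 (87.2 CPM at E13.5, 37.1 CPM at P0), Ndufs7 (96.5 and 43.6 CPM), Ndufs3 (93.6 and 42.5 CPM) and Ndufa1 (179.8 and 91.4 CPM). Ndufv1 binds NADH, and Ndufs3 and Ndufs7 form part of the arm that leads electrons to ubiquinone. For these 4 genes E13.5 was 2.35-fold (1.82 to 3.04), 2.21-fold (1.75 to 2.81), 2.20-fold (1.73 to 2.81) and 1.97-fold (1.67 to 2.32) above P0. Under median-of-ratios scaling 5 members were lower, and without the epithelial cells with skin markers 8 were lower and 2 higher. No share of all genes is given for these 2 settings.

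In mesenchyme the sum at P0 was 0.599 (0.591 to 0.608) of that at E13.5. Of 74 members 55 were lower (74.3%) and 1 higher (1.35%), against 42.6% and 23.0% of all genes, and the median log2 ratio was -0.83 for the members and -0.41 for all genes. Lower were 24 of 32 members of complex I, 15 of 17 of complex V, 9 of 13 of complex IV, 5 of 8 of complex III and 2 of 4 of complex II. Among the lowest were Ndufa10 (138 CPM at E13.5, 47.5 CPM at P0, E13.5 2.90-fold higher, 2.35 to 3.61), Ndufv1 (76.0 and 27.5 CPM, 2.76-fold), Ndufa12 (149 and 54.2 CPM, 2.74-fold) and Ndufb6 (146 and 54.6 CPM, 2.68-fold). Besides Ndufa4l2, the members at the other end were Ndufa13 (ratio of P0 to E13.5 1.18, 1.04 to 1.34), Cox7a2l (1.14, 1.02 to 1.28), Ndufv3 (1.10, 0.923 to 1.32) and Ndufa6 (1.09, 0.964 to 1.24), none of which differed 1.5-fold.

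This count too depends on the scaling. Median-of-ratios scaling shifted every log2 ratio by 0.57, and the members called lower were then 13 and those called higher 5, with a log2 ratio of the sums of -0.17. The share of all genes called after this shift is not given. The shift is the same for every gene. For the same genes it therefore leaves the members' median as far below that of all genes as before (-0.83 against -0.41 unshifted). Leaving the cells with red cell RNA out gave 53 lower members, and leaving the mitochondrial genes and Gm42418 (a transcript that overlaps ribosomal RNA) out of the total gave 54. These levels are shares of a group's UMIs, so less of the members and more of other transcripts cannot be told apart.

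Other genes of the mitochondrion stood beside the members as follows, from lists of known genes. The 13 mitochondrially encoded subunits summed to 36584, 47123, 49497 and 39171 CPM in epithelium and to 33406, 41925, 42465 and 16092 CPM in mesenchyme in order of stage, within the limit that the 6% filter sets on each cell. At P0, 12 of 13 of them were higher in epithelium, with a median log2 ratio of 1.28 (39.2% and 0.36 for all genes). At E15.5, when the nuclear members were lower in epithelium, the median log2 ratio of these 13 was 0.23, against 0.10 for all genes. None of the 13 was called at E15.5, while 26.8% of all genes were called higher and 19.3% lower. From E13.5 to P0 in mesenchyme 11 of 12 were lower, with a median log2 ratio of -1.18. In this comparison 42.6% of all genes were lower and 23.0% higher, with a median of -0.41. Genes of the mitochondrial ribosome had 16 of 24 lower (median -0.89) and those of the citric acid cycle 6 of 9 lower (median -0.67), while genes of the cytosolic ribosome had 21 of 76 lower (median -0.47). Of the 43 assembly factors of the complexes 7 could be tested in this comparison, and 4 were lower and 1 higher. A list of 10 regulators of nuclear or mitochondrial genes summed to 489, 522, 519 and 323 CPM in epithelium over the 4 stages. In mesenchyme it summed to 344, 363, 364 and 236 CPM. Yy1 had the most UMIs. Tfam, which maintains mitochondrial DNA, stood at 64.7, 48.7, 37.7 and 30.2 CPM in epithelium and 39.4, 41.8, 36.9 and 15.2 CPM in mesenchyme. Pprc1 went the other way, at 21.6 CPM at E13.5 and 39.8 CPM at P0 in epithelium, and 17.0 and 33.5 CPM in mesenchyme.

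Of the carriers and porins with enough UMIs, 1 of 6 was higher and 1 lower in epithelium at E13.5, and 4 were higher and 1 lower at P0. Of all genes, 16.0% were higher and 18.6% lower at E13.5, which is near 1 of 6, and 39.2% and 22.4% at P0. Slc25a4, an ADP/ATP carrier of heart and muscle, stood at 262, 264, 161 and 146 CPM in epithelium and at 717, 672, 520 and 343 CPM in mesenchyme over the stages. Slc25a3, the phosphate carrier, stood at 686 CPM in epithelium and 301 CPM in mesenchyme at P0, and at 554 and 506 CPM at E13.5. Slc25a4 was higher in mesenchyme at each stage, the opposite of the members' order at P0.

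Ndufa4 and Ndufa4l2 showed the largest opposite difference among the members. Ndufa4 (chromosome 6, 11900292 to 11907497, minus strand) encodes a subunit of cytochrome c oxidase, and Ndufa4l2 (chromosome 10, 127514967 to 127517154, plus strand) encodes a paralog known to be induced by hypoxia. In epithelium Ndufa4 stood at 305, 261, 316 and 494 CPM in order of stage. In mesenchyme it stood at 312, 263, 409 and 124 CPM. Its ratio of epithelium to mesenchyme was near 1 at E13.5 (0.977, 0.877 to 1.09) and E14.5 (0.993, 0.835 to 1.18), 0.774 (0.739 to 0.811) at E15.5, and 3.998 (3.53 to 4.54) at P0. Relative to E13.5, P0 was 1.62-fold higher (1.47 to 1.78) in epithelium, where Ndufa4 was the single member called higher, and E13.5 was 2.53-fold higher (2.21 to 2.89) than P0 in mesenchyme.

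Ndufa4l2 was at 0.83, 4.77 and 3.72 CPM in embryonic mesenchyme and at 434 CPM (408 to 460) in P0 mesenchyme. The 1088 UMIs at P0 came from 192 of 273 mesenchymal cells, with at most 31 in a cell. The ratio of P0 to E13.5 was 522, with an interval of 144 to 4320 because it rests on 2 UMIs at E13.5. In epithelium the gene stood at 0.98, 0, 33.1 and 29.5 CPM, and at P0 mesenchyme was 14.7-fold (11.7 to 18.8) above epithelium. At P0, 70.3% of mesenchymal and 15.7% of epithelial cells had at least 1 UMI, at median depths of 8743 and 9973 UMIs, and 62.3% and 9.13% after every cell was thinned to 5000 UMIs. Mesenchymal RNA was found in P0 epithelial cells too: Col3a1 had a UMI in 72.6% of them, and Col1a1, Col1a2 and Col3a1 summed to 309 CPM there and 74311 CPM in mesenchyme. Ndufa4l2 stood at 29.5 CPM there and 434 CPM in mesenchyme, and the part of free RNA in its epithelial share was not tested. Of the UMIs of the pair, Ndufa4l2 took 77.8% (75.6 to 80.0) in P0 mesenchyme, 5.62% (4.46 to 6.98) in P0 epithelium, 9.47% (8.67 to 10.3) in E15.5 epithelium and at most 1.79% in the 5 other groups.

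**Figure D3:**
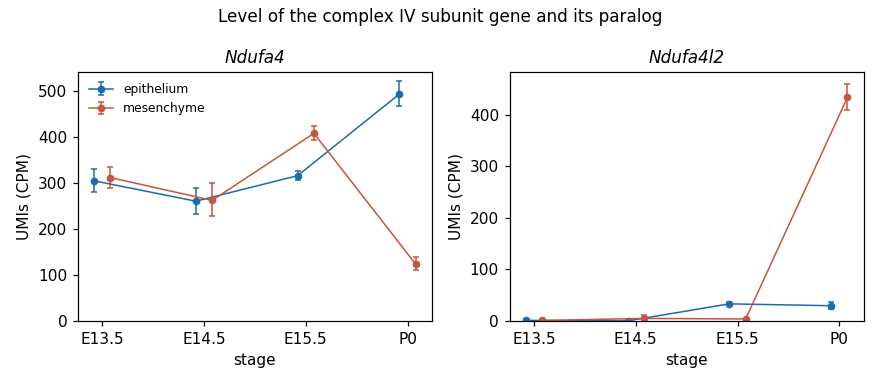
Level (UMIs per 1000000, CPM) of Ndufa4 and of its paralog Ndufa4l2 at the 4 stages in epithelium (blue) and mesenchyme (red), with exact 95% Poisson intervals for counting error. At P0 Ndufa4 is at 494 CPM in epithelium and 124 CPM in mesenchyme, and Ndufa4l2 at 29.5 and 434 CPM.

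Within P0 mesenchyme, cells without Ndufa4l2 (81 cells), with 1 to 5 UMIs (125) and with over 5 UMIs (67) held Ndufa4 at 154, 135 and 80.1 CPM, and all members at 1.28%, 1.24% and 1.24% of UMIs. The 3 classes also differed in depth, with medians of 7328, 8663 and 10361 UMIs. Fabp4, an adipocyte marker, stood at 663, 376 and 58.4 CPM over the classes. Pi16 and Dpp4, markers of a fibroblast progenitor population that were looked at after their values were seen, stood at 57.5, 352 and 771 CPM and at 38.8, 160 and 361 CPM. Ndufa4l2 is also known from pericytes. Their 5 markers summed to 96.9 CPM in P0 mesenchyme and to at most 59.7 CPM in the 7 other groups. Of the sum in P0 mesenchyme Abcc9 gave the most, with 120 UMIs in 74 cells. Rgs5 went the other way, with 1 UMI in P0 mesenchyme and 50 UMIs in 8 cells of E15.5 epithelium. Over the classes Abcc9 stood at 35.7, 47.0 and 59.8 CPM, Kcnj8 at 12.4, 21.3 and 51.6 CPM, Cspg4 at 31.1, 17.7 and 16.3 CPM and Rgs5 at 0, 0.9 and 0 CPM, and Higd1b had no UMI. The part of pericytes in the level of Ndufa4l2 was not tested.

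In E15.5 epithelium Ndufa4l2 had another setting. Its 473 UMIs came from 76 of 532 cells, up to 68 in a cell, and the tenth of cells with the most held 95.1% of them. The 20 cells with over 5 UMIs had Krt1 at 2223 CPM and Krt10 at 3107 CPM, keratins of skin layers above the base, and Krtdap at 5778 CPM, against 4.2, 34.5 and 461 CPM in the 456 cells without the gene. In these 20 cells the members held 2.07% (2.03 to 2.10) of UMIs, against 1.70% (1.69 to 1.71) in the 456. Without the cells with at least 10 skin marker UMIs, Ndufa4l2 was lower in epithelium than in mesenchyme (log2 ratio -1.14). Of the pericyte markers, Rgs5 had 50 UMIs in 8 cells of E15.5 epithelium, and Higd1b had 2 UMIs in 1 cell. Whether these cells also held Ndufa4l2 was not tested.

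In the Cox4, Cox6a, Cox6b, Cox7b, Cox8 and Atp5g families the same form had the most UMIs in all 8 groups. In the Cox7a family Cox7a2 led in 7 groups, and in P0 mesenchyme Cox7a2l took 51.9% (49.2 to 54.7) and Cox7a2 45.5% (42.7 to 48.2). Cox4i2, the form of subunit 4 linked to lung and to low oxygen, took 3.61% (2.80 to 4.57) of the Cox4 UMIs in E13.5 epithelium, 2.49% at E14.5, 2.57% (2.28 to 2.89) at E15.5 and 0.29% (0.11 to 0.63) at P0, and 0.76% to 1.23% in mesenchyme. Its level was 32.3 CPM in epithelium and 7.89 CPM in mesenchyme at E13.5 (4.10-fold, 2.43 to 7.23) and 19.5 and 6.06 CPM at E15.5 (3.22-fold, 2.34 to 4.53). At P0 it was 2.29 and 4.79 CPM and not apart at this depth (0.480, 0.148 to 1.38). Unlike Ndufa4l2, Cox4i2 was lower in epithelial cells with skin markers (16.1 CPM at E15.5) than in the others (24.3 CPM).

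Cox6b2, the form known from testis, held 6.76% of the Cox6b UMIs in E13.5 epithelium and 9.23% in E13.5 mesenchyme, and 3.81% and 3.74% at P0. Its mesenchymal level was 41.5 CPM at E13.5, 7.16 CPM at E14.5, 21.9 CPM at E15.5 and 9.57 CPM at P0, where the E14.5 value rests on 6 UMIs. Cox7a1, the heart and muscle form of subunit 7a, was near 0 in the embryo, with 0 to 7 UMIs in each group, and at P0 stood at 13.8 CPM (36 UMIs) in epithelium and 13.6 CPM (34 UMIs) in mesenchyme. The ratio of P0 to E13.5 was 5.62 (2.20 to 18.4) in epithelium, and in mesenchyme P0 was at least 10.9-fold higher, with the floor of 3 counts for the 0 UMIs at E13.5.

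**Figure D4:**
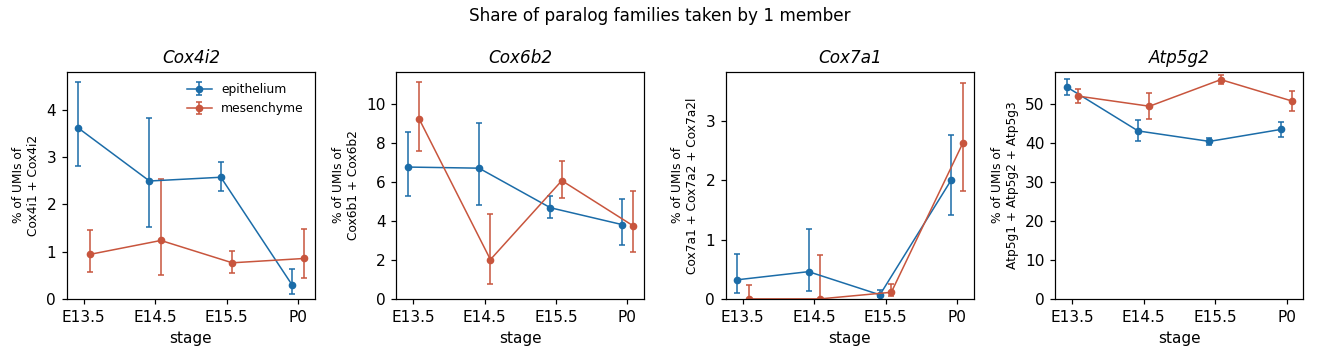
Percent of the UMIs of a paralog family taken by Cox4i2, Cox6b2, Cox7a1 and Atp5g2 at the 4 stages in epithelium (blue) and mesenchyme (red), with exact 95% binomial intervals for counting error. The share of Cox4i2 is higher in epithelium than in mesenchyme at E13.5 and E15.5, that of Cox7a1 is highest at P0 in both tissues, and that of Atp5g2 is lower in epithelium than in mesenchyme from E14.5 on.

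The 3 genes for subunit c of ATP synthase give the same mature protein from different precursors. Atp5g2 took 54.3% (52.3 to 56.3) of their UMIs in epithelium at E13.5, 43.0% at E14.5, 40.3% (39.4 to 41.3) at E15.5 and 43.4% at P0. In mesenchyme it took 51.9%, 49.3%, 56.2% (55.1 to 57.2) and 50.7%. Its level in epithelium was 647, 443, 312 and 415 CPM, while Atp5g1 stayed between 233 and 300 CPM and Atp5g3 between 229 and 287 CPM. In epithelial cells with skin markers Atp5g2 stood at 761, 577 and 349 CPM in the 3 embryonic stages in order, and in the others at 522, 299 and 261 CPM, so the lower level at E15.5 was present in both.

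The median share of a cell's UMIs on the 85 genes was 1.98%, 1.57%, 1.66% and 1.66% in epithelium and 2.06%, 1.99%, 2.06% and 1.25% in mesenchyme. At E15.5, 18.0% of epithelial cells lay above the mesenchymal median, and at P0 83.9% did. At E15.5 and P0 the medians had the order of the sums. At E13.5 the epithelial median was slightly below the mesenchymal one, with the sums about equal. At E14.5 the epithelial median was below the mesenchymal one although the sums were equal, and 31.1% of epithelial cells lay above the mesenchymal median. Cells spread widely within each group, from 0.37% to 3.79% in E15.5 epithelium and from 0.17% to 3.07% in P0 mesenchyme. The correlation of the share with the log of a cell's UMIs was between -0.31 and 0.27 in the 8 groups, as a description.

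**Figure D5:**
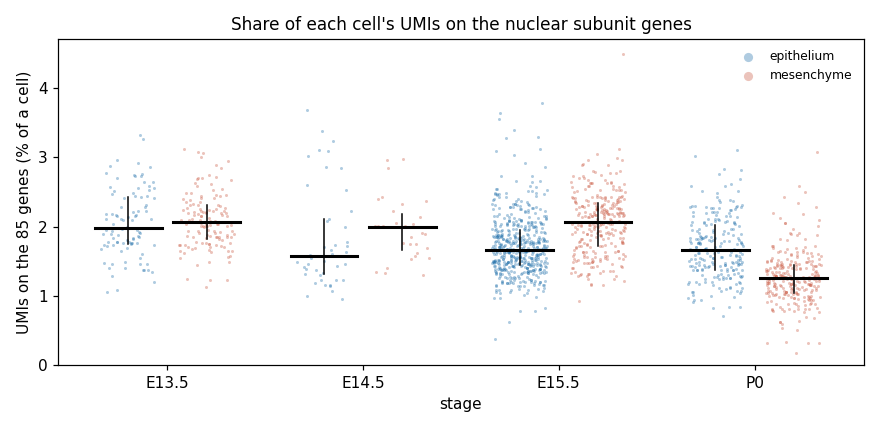
Percent of each kept cell's UMIs on the 85 nuclear subunit genes, by stage, in epithelium (blue) and mesenchyme (red). Each point is a cell, the thick line is the median and the thin line spans the quartiles; cells of 1 library are not replicates. At E15.5 the epithelial median (1.66%) is below the mesenchymal one (2.06%), and at P0 it is above it (1.66% and 1.25%).

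Cycling cells and the balance of keratins were set beside these shares. Epithelial cells with at least 2 UMIs of the proliferation markers Mki67 and Top2a held more member UMIs than the others at E14.5 (2.34% in 11 cells, 1.68% in 34) and at P0 (2.11% in 23 cells, 1.67% in 207), and slightly more at E13.5 (2.16% and 2.03%) and E15.5 (1.78% and 1.71%). A cut-off in UMIs favours deeper cells, and the depth of these classes is not given. In epithelium the members' share correlated with the log of a cell's UMIs at 0.27, 0.21, 0.06 and 0.23 in order of stage. The part of depth in the difference between the classes was not tested. In mesenchyme cycling cells and the others held 2.03% and 2.12% at E13.5, 1.90% and 1.94% at E14.5 (12 and 19 cells), 2.16% and 2.02% at E15.5 and 1.30% and 1.25% at P0 (7 and 266 cells), so the order of E15.5 was that of epithelium and that of E13.5 the opposite. The summed level of both markers in mesenchyme was 454, 928, 469 and 23.1 CPM over the stages, so P0 mesenchyme had the fewest, and in epithelium 418, 170, 159 and 197 CPM. Without cycling cells the log2 ratio of P0 to E13.5 in mesenchyme was -0.76, against -0.74 with them.

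Krt8 and Krt18 are keratins of luminal cells, and Krt5 and Krt14 of basal cells, in the gland after birth. The study found Krt8, Krt18 and Krt5 together in all its mammary epithelial clusters at E15.5. Embryonic cells classed by these keratins are therefore not to be read as luminal and basal cells. Epithelial cells with more Krt8 and Krt18 than Krt5 and Krt14 UMIs numbered 10 of 98 at E13.5, 1 of 45 at E14.5, 78 of 532 at E15.5 and 218 of 230 at P0. They held 1.73% (1.67 to 1.79) member UMIs at E13.5, 1.85% (1.83 to 1.87) at E15.5 and 1.76% (1.74 to 1.77) at P0. Cells with the opposite balance held 2.14% (2.12 to 2.16), 1.70% (1.70 to 1.71) and 1.53% (1.46 to 1.60), the last in 12 cells. The order of the classes was thus not the same at E13.5 as at E15.5 and P0, and the comparison of P0 with E13.5 in epithelium sets mostly Krt8 and Krt18 cells against mostly Krt5 and Krt14 cells.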

How the data were processed

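The authors deposited raw UMI counts, 1 genes-by-barcodes table per stage, which they had made with Cell Ranger against mm10 and had not normalized. The table headers name version 6.0.0, except 3.1.0 for E15.5, for which the submitters' processing notes give 6.0.0. Genes were joined by Ensembl ID. UMIs were summed over the kept cells of each stage and tissue, giving 8 groups. With 1 library per stage there are no replicates, so no test was run: levels have exact Poisson intervals, ratios exact binomial intervals (95%, counting error only, since cells of a library share their preparation), and a gene with no UMI takes a floor of 3 counts. The authors gated doublets out in the sort, before cells were put into droplets. No doublet caller was run, so droplets that held more than 1 cell may be among the kept cells. Members named were the 3 most abundant of each complex, the 5 furthest from 1 at each end of each comparison, paralogs, Sdh genes and members with no UMI; genes of other lists were named for the highest level or the furthest ratio. A member this rule would name is not reported here. Ndufa8, Atp5k and Uqcrc1 were named for a promoter motif, and Pi16 and Dpp4 after their values were seen. Pprc1 and Cidea were named because they went the other way from their lists. The members and lists were chosen with earlier results of these data known. The alternatives changed the cell filters, tissue rule, depth, cell weights, scaling, low-value filter and cells left out. The search letters for NRF1 were shortened to 9 after a first search with the full palindrome, which 5 members held. Scripts were tested on simulated data. Python 3.11.15, NumPy 2.4.6, pandas 2.3.3, SciPy 1.17.1 and matplotlib 3.10.9 were used.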

Additional observations from a re-analysis of the deposited data

Results flagged for a closer look

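Ndufa4 stood on opposite sides in the 2 tissues when P0 was set against E13.5, with a log2 ratio of 0.70 in epithelium and -1.34 in mesenchyme. The summed members had a log2 ratio of epithelium to mesenchyme of -0.26 at E15.5 and 0.48 at P0. With 1 library per stage neither difference between groups was tested, and stage cannot be told apart from the dissection session or the P0 digestion.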

How the results depend on the processing

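No paired analysis was possible because each comparison, within a stage or between stages, rests on 1 library per stage and comes from no test, and no replicate could be left out. A tissue effect over all stages, with stage as a block, was not fitted, since stages are not replicates. Of the sums and counts of members, 150 values under an alternative stayed close to the reported ones and 54 moved. Sums are log2 ratios, of epithelium to mesenchyme unless P0 is set against E13.5, and counts are members called higher or lower. The counts have no share of all genes beside them. The cause of each shift was not tested.

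With cells thinned to 5000 UMIs the sums were -0.092 (E14.5), -0.23 (E15.5) and 0.45 (P0), and 2 members were lower at E13.5, 14 lower at E14.5 and 2 higher at E15.5. With the mean of cell shares the sums were -0.022, -0.11, -0.25 and 0.42 in order of stage and -0.72 for P0 over E13.5 in mesenchyme. With median-of-ratios scaling the sums were 0.033, -0.069, -0.32 and 0.11 in order of stage, and -0.095 in epithelium and -0.17 in mesenchyme over time. Then 0 members were higher at E15.5, 7 higher and 6 lower at P0, 5 lower over time in epithelium, and 5 higher and 13 lower in mesenchyme. Without cycling cells the sums were -0.064, -0.20, -0.24 and 0.42 in order of stage and -0.76 in mesenchyme over time, with 1 higher and 5 lower at E13.5 and 9 lower at E14.5. Without epithelial cells with skin markers, an alternative chosen after seeing the data, the embryonic sums were -0.17, -0.32 and -0.35 and that over time in epithelium -0.087. Then 0 were higher and 7 lower at E13.5, 20 lower at E14.5, 0 higher and 21 lower at E15.5, and 2 higher and 8 lower over time in epithelium. With the total taken without Gm42418 and mitochondrial genes, also chosen after seeing the data, the E15.5 sum was -0.25. With a mean of at least 10 CPM 5 were higher at E14.5, 3 at E15.5 and 2 over time in epithelium. With no filter on low values 5 were higher and 1 lower at E13.5, 6 higher at E14.5, 3 higher at E15.5, 6 lower at P0, and 3 higher over time in each tissue. With a mitochondrial maximum of 10% 0 were higher at E15.5.

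Of the values of single members, 29 changed sign, 15 of them under median-of-ratios scaling, which moves every gene of a comparison alike and so says nothing about these members. Thinned, the log2 ratio was 0.10 for Ndufb11 and 0.16 for Sdhd at E13.5, and -0.035 for Ndufa12, -0.10 for Ndufs6 and 0.32 for Sdhc at E14.5. Under median-of-ratios scaling it was -0.15 for Atp5e, -0.041 for Cox6c, -0.19 for Cox7a2l and -0.19 for Uqcrh at P0. Over time in mesenchyme it was 0.069 for Atp5l, 0.085 for Cox6a1, 0.025 for Ndufa5, 0.23 for Ndufb11, 0.064 for Ndufb7, 0.19 for Ndufc1, 0.14 for Sdhd, 0.14 for Uqcr11 and 0.29 for Uqcrh. In epithelium it was 0.043 for Cox4i1 and 0.0047 for Cox7a2. Without cells with skin markers it was -0.14 for Atp5b and -0.30 for Ndufa12 at E14.5, -0.020 for Cox6b1 and -1.14 for Ndufa4l2 at E15.5, and over time in epithelium 0.048 for Cox4i1, 0.15 for Cox7a2, 0.061 for Cox7b, 0.011 for Ndufa2 and 0.043 for Uqcrh. Depth limits members with few UMIs, such as Cox4i2 at P0 and Cox6b2 at E14.5, and the E14.5 groups hold the fewest cells.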

Other observations

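Genes of glycolysis, the other main route to ATP, were on the epithelial side where called at each embryonic stage. Of those with enough UMIs, 4 of 12 were higher in epithelium at E13.5, 8 of 11 at E14.5 and 4 of 9 at E15.5, and 0 were lower at each of these stages. Of all genes, 16.0%, 20.7% and 26.8% were higher and 18.6%, 21.5% and 19.3% lower. Whatever its size, the ratio was below 1 for 3 of the 12 at E13.5 and 1 of the 11 at E14.5. At P0 5 of 11 were higher and 2 lower, against 39.2% and 22.4% of all genes. Hk2, a hexokinase that begins glycolysis, stood at 66.1, 94.2, 52 and 26.4 CPM in epithelium and at 36.5, 35.8, 27 and 325 CPM in mesenchyme in order of stage. Pkm, pyruvate kinase, stood at 602, 473, 493 and 436 CPM and at 463, 247, 254 and 110.5 CPM.

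In the barcodes left out, the nuclear OXPHOS genes held a smaller share of UMIs than in either tissue of the kept cells, except in P0 barcodes with over 6% mitochondrial UMIs. Barcodes with over 6% mitochondrial UMIs had 0.904%, 1.27%, 1.67% and 1.34% in order of stage, and those under 5000 UMIs had 1.29%, 1.55%, 1.10% and 0.758%. The P0 value of the first kind lay between those of kept mesenchyme (1.25%) and epithelium (1.75%).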
